A study of Mus musculus with 6 samples.

Results

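The fragments described here come from 148 of the 290 rows of a tRNA count table of mouse skeletal muscle. They are the rows named for a nuclear tRNA of any isotype other than Phe-GAA, Gly, Glu, Asp, Val, Lys and His, and they were taken by name alone, without use of any measured value. Mitochondrial tRNAs (22 rows) and the 120 nuclear rows of the other isotypes make up the rest of the table. The 148 rows cover 15 tRNA classes (Ala, Arg, Asn, Cys, Gln, Ile, Leu, Met, initiator Met written iMet, Pro, selenocysteine written SeC, Ser, Thr, Trp and Tyr), 33 anticodon families and 91 isodecoders. In the naming used by the table, a row such as tRNA-Pro-TGG-2-3 gives the amino acid, the anticodon, the isodecoder (a tRNA body that differs from others of the same anticodon) and the gene copy.

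The series holds 3 TAC and 3 Sham small RNA libraries of skeletal muscle, from C57BL6 males on normal chow at 16 weeks of age. TAC stands for transverse aortic constriction, a surgical narrowing of the aorta that puts the heart under pressure overload, followed by hypertrophy and heart failure. Sham mice are recorded as the control treatment. Every record gives a treatment time of 8 weeks, the protocol gives a range of weeks, and which muscle was taken is not stated. Nothing in the labels says how the replicates of a group were separated, so the p-values measure the spread between these libraries.

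Transfer RNAs are made by RNA polymerase III, which stops at a run of T in the gene. The primary transcript loses a leader and a trailer, and the enzyme TRNT1 adds the letters CCA, to which the amino acid is then attached. Ribonucleases, angiogenin among them, cut mature tRNAs into fragments of several lengths, and such fragments have been studied in stress responses and as regulators of translation. Fragments are counted here by the gene they were assigned to, so a row does not tell a 5′ fragment from a 3′ fragment.

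Exact fragment sequences could be read for a small number of these isotypes, because a separate table lists mapped sequences without annotation together with their positions. Of its 1832 sequences, 23 lay at 14 RefSeq tRNA genes of the isotypes described here. They are shown because they carry products of processing on the 3′ side of the tRNA. Of them, 10 covered the mature 3′ end and closed with CC, CCA or CCA and T. The other 13 began at or next to the first base after a gene and ended in T. Positions are on GRCm38, gene names are those of RefSeq for GRCm38.p6, and each sequence runs 5′ to 3′ with the terminal CCA (with any T after it) or the terminal T run in capitals. A selection follows that covers both kinds and includes the 3 sequences with the smallest p. First come 5 that cover the mature 3′ end, of which the Ala-TGC sequence runs past CCA into T.
Tyr-GTA gene n-TYgta9, chr5:30888153-30888174, plus strand: tcgattccggctcgaaggaCCA
Leu-CAA gene n-TLcaa3, chr11:58302471-58302492, minus strand: tcgaatcccacttctgacaCCA
Ser-GCT gene n-TSgct3, chr11:69063039-69063060, minus strand: tcgaatcccatcctcgtcgCCA
Arg-ACG gene n-TRacg2, chr9:123529422-123529443, minus strand: tcgactcctggctggctcgCCA
Ala-TGC gene n-TAtgc10, chr5:125404245-125404264, minus strand: tccccggcatctccaCCATT

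The 4 trailers shown are precursor pieces that lie outside the mature tRNA.
Cys-GCA gene n-TCgca55, chr11:97988230-97988245, minus strand: agcaggctcactcTTT
Arg-ACG gene n-TRacg6, chr14:54517769-54517791, plus strand: ttgggactggtactcctttaTTT
Ala-CGC gene n-TAcgc8, chr2:57182150-57182169, plus strand: agcagccggaattctaTTTT
Thr-CGT gene n-TTcgt5, chr16:13437395-13437424, plus strand: gccctctttccgtgtggatttaagaaTTTT
The first 16 bases of the n-TRacg6 trailer also open 5 sequences that were assigned elsewhere in the genome, so its gene of origin is uncertain. The same holds for the n-TAtgc10 sequence, whose first 16 bases open 1 sequence assigned elsewhere. Shared first bases were looked for only among the 1832 unannotated sequences, not in the genome. The other sequences shown may therefore also match further genes.

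The libraries held between 2966043 and 3991766 reads in TAC and between 1695043 and 5146811 reads in Sham. Of these, 1.28% ± 0.0892 in TAC and 1.96% ± 0.150 in Sham were tRNA reads (SD, n = 3 each). Reads per UMI (unique molecular identifier, a tag that marks each molecule before amplification) averaged 1.02 for the rows described here in both groups, so molecules were rarely sequenced again. The 4 listed muscle miRNAs summed to between 601443 and 615439 per 1000000 miRNA UMIs in TAC and between 532453 and 614688 in Sham. The liver miRNA miR-122-5p stood at 63.6 to 1895 per 1000000 in TAC and 3.39 to 17.4 in Sham. Of 5 listed epithelial miRNAs 3 were found, with a summed level of 1.31 to 6.26 per 1000000 in TAC and 22.9 to 68.6 in Sham, and miR-200b-3p and miR-429-3p were at 0 in at least 1 library. The 4 immune miRNAs summed to 920 to 1018 in TAC and 1064 to 1522 in Sham, and the endothelial miR-126a-3p stood at 26820 to 28266 in TAC and 28894 to 34261 in Sham, neither with overlap. The 2 erythroid miRNAs overlapped, at 54.04 to 137 in TAC and 55.1 to 114 in Sham. The part of these other cell types in the tRNA results was not tested.

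The fragments of these classes took a larger share of the tRNA UMIs in TAC than in Sham. They numbered 4876, 4075 and 5219 UMIs in TAC 1, 2 and 3, and 9135, 5312 and 2831 UMIs in Sham 1, 2 and 3. As a share of tRNA UMIs that was 10.4%, 11.3% and 12.1% in TAC, against 9.76%, 8.44% and 8.00% in Sham. The groups did not overlap, and the means were 11.3% ± 0.898 in TAC and 8.73% ± 0.915 in Sham (SD, n = 3 each), a difference of 2.54 percentage points that is given as a description without a test. The other nuclear tRNAs held 47.6% ± 6.34 in TAC and 53.4% ± 10.5 in Sham, and mitochondrial tRNAs held 41.2% ± 6.93 in TAC and 37.9% ± 9.63 in Sham.

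The direction of the sum depended on what it was divided by. Per 1000000 miRNA UMIs the same fragments stood at 1696, 1900 and 2275 in TAC, against 2655, 2250 and 2400 in Sham, so the TAC mean of 1957 ± 293 was below the Sham mean of 2435 ± 205, with TAC 3 inside the range of Sham. Per 1000000 UMIs of all RNA classes, scaled with the TMM factors of the miRNAs, the means were 1973 ± 325 in TAC and 1977 ± 253 in Sham. TMM is a scaling that sets the bulk of features in a table to no change. The other nuclear tRNAs were lower in TAC per 1000000 miRNA UMIs without overlap, at 8238 ± 1334 in TAC and 15034 ± 3852 in Sham. So were the mitochondrial tRNAs, at 7101 ± 1078 in TAC and 10484 ± 2218 in Sham. Both separations are given on this scale alone. Whether they hold per scaled UMIs of all RNA classes was not tested. In whole tissue, fewer cells that hold a fragment and less of it per cell cannot be told apart.

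**Figure D1:**
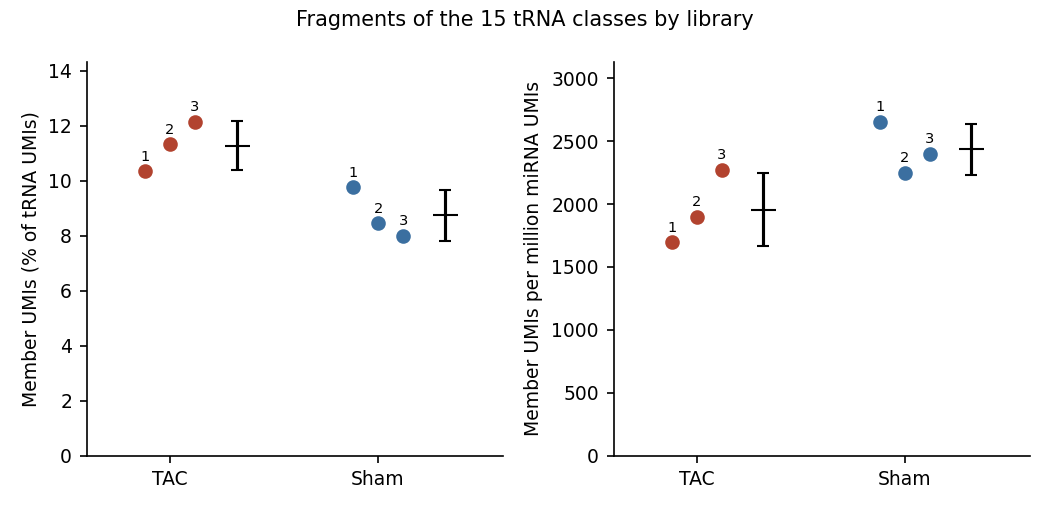
Summed UMIs of the 148 rows in each library (points, numbered by replicate; bars give mean ± SD, n = 3), as a percentage of tRNA UMIs on the left and per 1000000 miRNA UMIs on the right. The TAC libraries lie above all Sham libraries on the left (10.4% to 12.1% against 8.00% to 9.76%), and on the right the TAC mean of 1957 lies below the Sham mean of 2435.

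In single rows, 3 tRNA genes rose in TAC and none fell: tRNA-Asn-GTT-3-3, tRNA-Arg-TCT-2-1 and tRNA-Pro-TGG-2-3. Of the 148 rows 109 had enough UMIs to be tested with edgeR's quasi-likelihood test. The p-values were adjusted by Benjamini-Hochberg over all 238 tested rows of the tRNA table with a threshold of 0.05. A row could be tested when a single group had enough UMIs, as was the case for tRNA-Asn-GTT-3-3 in TAC. The 3 rows that rose stand against 2.94% of all tested rows called higher (7 of 238), and the 0 rows that fell against 1.26% called lower (3 of 238). At an unadjusted p under 0.05 there were 17 rows, or 15.6%, against 18.9% of the whole table. DESeq2 called 1 row, higher in TAC, against 1.68% of the whole table. The median log2 fold change, TAC over Sham, was 0.17 over the tested rows of these classes and -0.05 over the whole table. The 3 calls were sensitive to single libraries: none was left without TAC 1 or without TAC 2, and 1 without Sham 2 or without Sham 3. Without Sham 1 there were 2 rows higher and 1 lower, tRNA-Leu-CAG-1-1. With the replicate number as a block, 5 of these rows passed as higher, against 5.04% of the whole table, and 4 as lower, against 7.14%, and the 3 rows above were among them. With library sizes over all RNA classes 1 row passed, higher in TAC, against 1.68% of the whole table.

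The TAC and Sham libraries did not overlap in 22 of the tested rows, taken as CPM (UMIs per 1000000 tRNA UMIs after TMM scaling). TAC was higher in 19 rows, or 17.4%, against 14.3% of the whole table, and lower in 3 rows, or 2.75%, against 6.72% of the whole table. Among the 19 were 4 Gln rows, 3 Ile rows, 3 Pro rows and 2 rows each of Leu and Ser. The 3 lower rows were all Leu, so Leu rows separated in both directions. Relative to the whole table's median, 68 of the 109 rows lay above it under TMM and 69 under each of RLE, upper-quartile, library-size-only and all-class scaling.

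tRNA-Asn-GTT-3-3, a gene for the tRNA that brings asparagine to the ribosome, had the largest fold change among the 109 tested rows. Its level was 402, 394 and 234 CPM in TAC 1, 2 and 3, against 127, 0 and 35.5 CPM in Sham 1, 2 and 3. Every TAC library lay above every Sham library, but few molecules stand behind these levels: 21, 16 and 11 UMIs in TAC, against 12, 0 and 1 in Sham. For their library sizes the Sham counts lay below the minimum for testing, so the row entered the test through TAC alone. Its p-value and its rank by fold change carry that selection. The log2 fold change was 2.26 with a standard error of 0.52 (adjusted p = 0.0139), and this was the row still called with all-class library sizes (2.12, adjusted p = 0.0326). The size of the change rests on single Sham libraries: the log2 fold change was 4.55 without Sham 1 and 1.72 without Sham 2, and limma-voom gave 3.12. The call was lost without TAC 1 (adjusted p = 0.0855) and without TAC 2 (0.0591). Copies of an isodecoder share their mature sequence, so how UMIs were divided among them is uncertain. The copy tRNA-Asn-GTT-3-2 had a log2 fold change of 0.40 (adjusted p = 0.430). Summed over the 5 copies, Asn-GTT-3 stood at 1929, 1549 and 1109 CPM in TAC, against 1174, 894 and 688 CPM in Sham, with overlap between TAC 3 and Sham 1 (log2 fold change 0.70, adjusted p = 0.227).

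tRNA-Arg-TCT-2-1, a gene for an arginine tRNA, is the only listed copy of its isodecoder. Its level was 1168, 1232 and 1189 CPM in TAC 1, 2 and 3, against 698, 438 and 462 CPM in Sham 1, 2 and 3. The TAC libraries were close together and all above Sham, with means of 1197 ± 32.5 and 532 ± 144 CPM. The log2 fold change was 1.12 ± 0.29 (SE, adjusted p = 0.0256), and 1.00 with all-class library sizes, where it no longer passed (adjusted p = 0.145), as was the case with DESeq2. Per 1000000 miRNA UMIs the row was also higher, at 21.2, 23.3 and 24.4 in TAC against 19.2, 10.6 and 11.02 in Sham.

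tRNA-Pro-TGG-2-3, a gene for a proline tRNA, stood at 1264, 986 and 828 CPM in TAC 1, 2 and 3, against 571, 473 and 462 CPM in Sham 1, 2 and 3. The groups did not overlap, and the log2 fold change was 1.01 ± 0.28 (SE, adjusted p = 0.0432). This call also failed with all-class library sizes (0.89, adjusted p = 0.172), with DESeq2, limma-voom or reads in place of UMIs, and when any library other than TAC 3 was left out. The other 3 copies of the isodecoder had log2 fold changes of 0.30, -0.17 and -0.42, none past the threshold. Their sum with tRNA-Pro-TGG-2-3 was 2133, 1736 and 1556 CPM in TAC, against 1351, 1251 and 1835 CPM in Sham, where Sham 3 lay among the TAC libraries (log2 fold change 0.31, adjusted p = 0.490).

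When all rows of an isodecoder were summed, 72 of the 91 isodecoders were tested and none passed in edgeR, against 1.52% of all isodecoders tested (2 of 132). At an unadjusted p under 0.05 there were 9, against 18.2% of all isodecoders. DESeq2 called 0, against 4.55%, and the fit with the replicate block called 2, against 7.58%. Arg-TCT-2 had an adjusted p of 0.0586. Over 17 isodecoders with at least 2 tested copies, the range of the copies' log2 fold changes had a median of 0.56. It was widest in Asn-GTT-3 (1.87), followed by Leu-CAG-1 (1.59) and Pro-TGG-2 (1.42). The standard error of a single tested row had a median of 0.32, and whether copies differ beyond such noise was not tested.

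The tested rows most like each of these 3 across the 6 libraries were found by Pearson's r of log2 CPM. It is given as a description, since rows chosen for a rise in TAC share the group difference. The row most like tRNA-Asn-GTT-3-3 was tRNA-Ser-GCT-4-2 (r = 0.957), followed by tRNA-Thr-CGT-2-1 (0.937) and tRNA-Arg-TCT-2-1 (0.917). For tRNA-Arg-TCT-2-1 these were tRNA-Thr-CGT-2-1 (0.972), tRNA-Ile-AAT-1-3 (0.958) and tRNA-Pro-TGG-2-3 (0.927). For tRNA-Pro-TGG-2-3 they were tRNA-Pro-CGG-1-2 (0.935), tRNA-Gln-CTG-6-1 (0.928) and tRNA-Arg-TCT-2-1 (0.927).

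The rows with the smallest p among those lower in TAC all belonged to leucine tRNAs, and none passed with all 6 libraries and no block. tRNA-Leu-AAG-1-1 stood at 153, 123 and 234 CPM in TAC 1, 2 and 3, against 307, 368 and 391 CPM in Sham 1, 2 and 3 (log2 fold change -1.001, adjusted p = 0.141). tRNA-Leu-TAG-1-1 stood at 230, 444 and 404 CPM in TAC, against 486, 858 and 639 CPM in Sham (-0.88, adjusted p = 0.142). Neither row had overlapping groups. As a group only Sham had enough UMIs of tRNA-Leu-AAG-1-1 for testing, so its p-value carries that selection. tRNA-Leu-CAG-1-1 stood at 460, 912 and 765 CPM in TAC, against 772, 1243 and 2024 CPM in Sham (-0.87, adjusted p = 0.178), with TAC 2 above Sham 1, and this row passed when Sham 1 was left out (-1.20, adjusted p = 0.0299). With the replicate block the adjusted p was 0.0225 for tRNA-Leu-AAG-1-1, 0.0340 for tRNA-Leu-TAG-1-1 and 0.0341 for tRNA-Leu-CAG-1-1, and the remaining row called lower in that fit was tRNA-Pro-AGG-1-5 (adjusted p = 0.0306), which is named here after its values were seen. In the same fit tRNA-Gln-CTG-2-3 (0.0371) and tRNA-Leu-CAA-1-1 (0.0397) were also called higher, and they too were named after their values were seen. As a group only TAC had enough UMIs of tRNA-Leu-CAA-1-1 for testing.

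**Figure D2:**
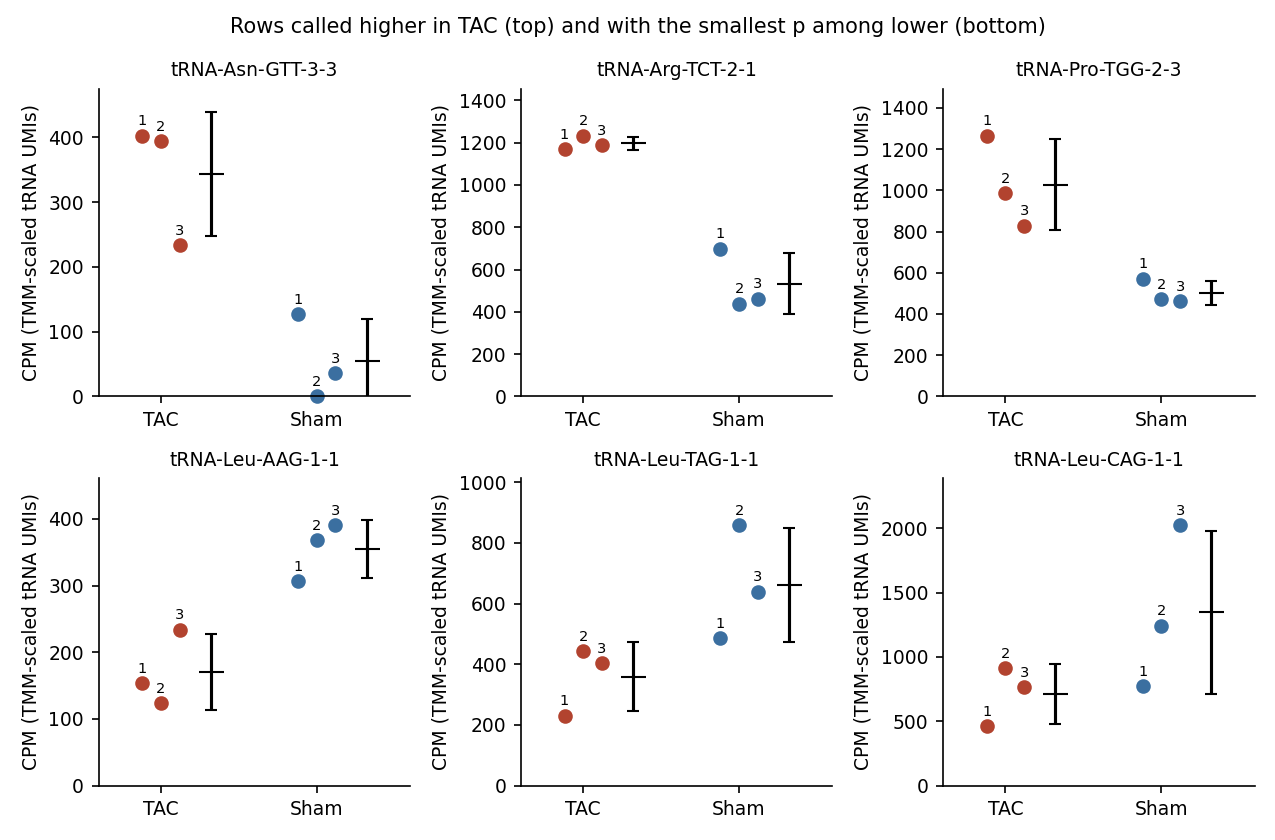
Level of 6 tRNA rows in each library, in CPM of TMM-scaled tRNA UMIs (points, numbered by replicate; bars give mean ± SD, n = 3, cut at 0). The upper panels show the 3 rows that rose in TAC, each without overlap between the groups, and the lower panels the 3 leucine rows with the smallest p among those lower in TAC, of which tRNA-Leu-CAG-1-1 overlapped.

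Over all tested rows of these classes 61.5% had a log2 fold change above 0, against 47.1% of the whole table (112 of 238). All 15 tested Gln rows had a log2 fold change above 0, between 0.022 and 0.92 with a median of 0.43, and none passed the test. With all-class library sizes 13 of the 15 stayed above 0, and the median was 0.31. Summed over the class, Gln fragments stood at 396, 381 and 441 per 1000000 miRNA UMIs in TAC, against 556, 404 and 388 in Sham, so on that scale they overlapped and were not higher in TAC. All 10 tested Arg rows were above 0 (median 0.37), 7 of them with all-class library sizes (median 0.28), and 1 passed. These rows are not independent of each other, since copies share sequence. Cys had 4 of 5 rows above 0 (median 0.40), Met 3 of 3 (0.44), Ile 4 of 6 (0.50) and Asn 2 of 2 (1.33). These medians stayed above 0 in all 5 scalings, and among the rows of these 4 classes tRNA-Asn-GTT-3-3 alone passed. Per 1000000 miRNA UMIs the summed Cys fragments stood at 88.7, 89.5 and 81.9 in TAC, against 105, 97.9 and 118 in Sham. On that scale Cys was thus lower in TAC without overlap, and the Arg, Met, Ile and Asn sums overlapped.

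Pro rows ranged from -0.86 to 1.01, and Leu was the class with a slightly wider range still. Of the 19 tested Leu rows 8 were above 0 and 11 below, from -1.001 to 0.93 with a median of -0.14, and none passed. Within the leucine anticodons, the 3 tested Leu-AAG-1 copies were all below 0 (-1.001, -0.57 and -0.44), while tRNA-Leu-CAA-1-1 was at 0.93. Ala had 2 of 8 rows above 0 (median -0.23), iMet 1 of 6 (-0.13), and Tyr 1 of 4 (-0.14). The medians of Leu, Ala, iMet and Tyr, and the value of the single SeC row (-0.17), turned positive when tRNA library size alone was used, a scaling that moved the whole table's median by 0.30 on the log2 scale. Pro (15 rows, median 0.17, 1 passed), Ser (10 rows, 0.13) and Thr (4 rows, 0.05) had medians near the middle. The Thr median turned to -0.07 with all-class library sizes. Upper-quartile factors moved the whole table's median by 0.11. The single tested Trp row had a log2 fold change of 0.37.

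**Figure D3:**
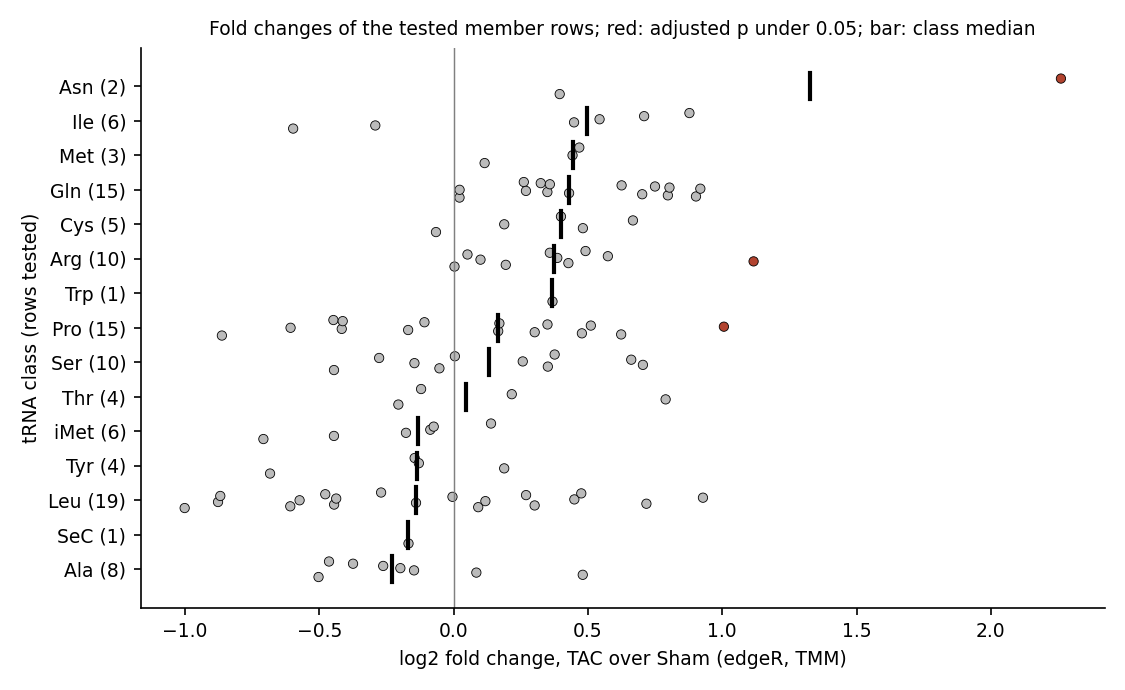
Log2 fold change, TAC over Sham, of the 109 tested rows by tRNA class (points; vertical bars give class medians; the number of rows tested stands in parentheses). The 3 rows past the adjusted threshold are red, all Gln and Arg points lie at or right of 0, and Leu spreads from -1.001 to 0.93.

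Anticodon families were summed next, since a sum does not depend on how UMIs were divided among gene copies. Of the 33 families 31 were tested and none passed in edgeR, against 1.52% of all families tested (1 of 66). At an unadjusted p under 0.05 there were 3, against 18.2% of all families. DESeq2 called 0, against 4.55%, and limma-voom called 0, against 1.52%. Without overlap, 3 families were higher in TAC (9.68%, against 7.58% of all families) and 2 lower (6.45%, against 9.09%). The median log2 fold change was -0.00030 over these families and -0.12 over all families. With the replicate block 2 families passed, against 15.2% of all families: Asn-GTT higher (0.73, adjusted p = 0.0401) and Leu-AAG lower (-0.67, adjusted p = 0.0476).

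The families with the smallest p among those higher in TAC were Asn-GTT, Thr-CGT and Gln-TTG. Asn-GTT stood at 1926, 1620 and 1225 CPM in TAC 1, 2 and 3, against 1245, 938 and 693 CPM in Sham 1, 2 and 3, with TAC 3 just below Sham 1 (log2 fold change 0.68 ± 0.26, SE, adjusted p = 0.230). Thr-CGT, a threonine tRNA family, stood at 548, 429 and 590 CPM in TAC, against 385, 230 and 347 CPM in Sham, without overlap (0.69 ± 0.27, adjusted p = 0.230). Gln-TTG, a glutamine tRNA family, stood at 3658, 3264 and 5579 CPM in TAC, against 2368, 2461 and 3390 CPM in Sham, with TAC 2 below Sham 3 (0.62 ± 0.26, adjusted p = 0.230).

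Among the families lower in TAC the smallest p belonged to Tyr-GTA, Leu-AAG and Ala-CGC. Tyr-GTA, the tyrosine tRNA family, stood at 2739, 2311 and 3107 CPM in TAC 1, 2 and 3, against 3816, 4550 and 2774 CPM in Sham 1, 2 and 3, where Sham 3 lay among the TAC libraries (-0.46 ± 0.23, adjusted p = 0.293). Leu-AAG stood at 795, 1739 and 2223 CPM in TAC, against 2277, 2425 and 2273 CPM in Sham, without overlap and with TAC 1 far below the rest (-0.57 ± 0.33, adjusted p = 0.385). Ala-CGC stood at 1502, 2001 and 1883 CPM in TAC, against 2328, 2160 and 2080 CPM in Sham, also without overlap (-0.30 ± 0.18, adjusted p = 0.397), but its log2 fold change was 0.021 when tRNA library size alone was used.

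The families differed in level by far more than the groups did. Each UMI stands for 1 captured fragment, so levels are given per molecule and were not divided by tRNA length, and ligation favours some fragments over others. Ala-TGC averaged 17753 ± 9129 CPM in TAC and 20057 ± 4856 CPM in Sham, and Gln-CTG 16661 ± 609 CPM in TAC and 15216 ± 1533 CPM in Sham, 2 levels that overlap. Next came Leu-CAG with 5362 ± 1070 CPM in TAC and 5918 ± 1414 CPM in Sham, and Ser-AGA with 5437 ± 1531 CPM in TAC and 5473 ± 310 CPM in Sham, which do not differ beyond their spread. Cys-GCA averaged 4448 ± 163 CPM in TAC and 4363 ± 887 CPM in Sham, and Arg-CCT 4497 ± 428 CPM in TAC and 3755 ± 822 CPM in Sham.

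Lower in that order stood Ile-AAT, with 3641 ± 194 CPM in TAC and 2967 ± 74.0 CPM in Sham, which did not overlap. The initiator iMet-CAT averaged 2879 ± 451 CPM in TAC and 3366 ± 208 CPM in Sham, and the elongator Met-CAT 2590 ± 377 CPM in TAC and 1982 ± 451 CPM in Sham. Pro-AGG averaged 2629 ± 653 CPM in TAC and 2932 ± 634 CPM in Sham. Thr-TGT averaged 1094 ± 86.6 CPM in TAC and 1151 ± 122 CPM in Sham. SeC-TCA, which reads UGA as selenocysteine, averaged 946 ± 130 CPM in TAC and 1079 ± 68.9 CPM in Sham. Trp-CCA, the tryptophan family, averaged 530 ± 47.7 CPM in TAC and 521 ± 108 CPM in Sham. The lowest tested family was Arg-ACG, with 286 ± 115 CPM in TAC and 273 ± 76.2 CPM in Sham, and Arg-TCG and Ser-GGA held too few UMIs to be tested.

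**Figure D4:**
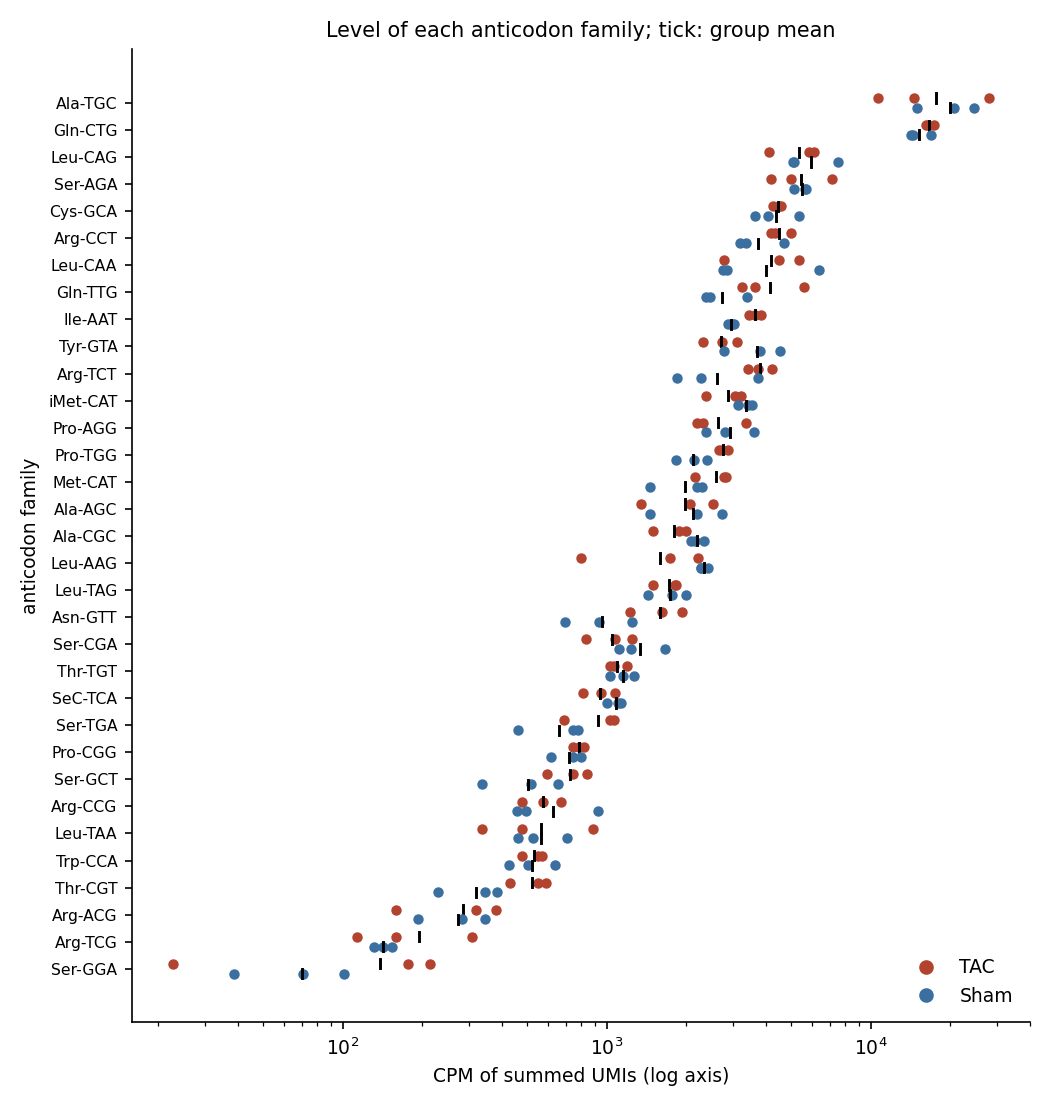
Level of the 33 anticodon families in each library on a log axis, in CPM of summed and TMM-scaled UMIs (points; black ticks give group means, n = 3). The families run from Ser-GGA to Ala-TGC, which averaged 17753 CPM in TAC and 20057 CPM in Sham, and in 28 of the 33 the TAC and Sham points overlap.

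A large part of the UMIs came from a small number of genes. Over the 6 libraries the 148 rows held 31448 UMIs, with a median of 110.5 per row, and 65 rows held fewer than 100. tRNA-Ala-TGC-2-1, a gene for an alanine tRNA, gave 17.7% of them and tRNA-Gln-CTG-7-1, a gene for a glutamine tRNA, 11.02%. tRNA-Ala-TGC-2-1 stood at 11186, 14539 and 25828 CPM in TAC 1, 2 and 3, against 15097, 19877 and 22153 CPM in Sham 1, 2 and 3. TAC 3 was the highest and TAC 1 the lowest of all libraries, so the groups overlapped fully (log2 fold change -0.15 ± 0.39, adjusted p = 0.871), and the sign turned without TAC 1 (0.085) and when tRNA library size alone was used (0.16). tRNA-Gln-CTG-7-1 stood at 10803, 11237 and 9579 CPM in TAC, against 12538, 9895 and 8662 CPM in Sham (0.022 ± 0.35, adjusted p = 0.971).

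The other 8 of the 10 most abundant rows were tRNA-Cys-GCA-5-1, tRNA-Leu-CAA-3-1, tRNA-Ser-AGA-1-1, tRNA-Tyr-GTA-6-1, tRNA-Leu-CAG-2-1, tRNA-Leu-CAA-2-1, tRNA-Ser-AGA-2-3 and tRNA-Arg-CCT-4-1, and none passed. The smallest adjusted p among them was that of tRNA-Tyr-GTA-6-1 (0.256), at 1647, 1109 and 1720 CPM in TAC, against 2527, 3047 and 1562 CPM in Sham. The row leaned as its family did, with Sham 3 among the TAC libraries. tRNA-Cys-GCA-5-1 averaged 2841 ± 337 CPM in TAC and 2990 ± 611 CPM in Sham.

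The gene copies in the table can be set against the genome annotation only by family. RefSeq lists 272 nuclear tRNA genes of these isotypes. Cys-GCA has 56 genes in RefSeq and 7 rows in the table, and Thr-AGT has 9 genes and no row. Gln-CTG has 10 genes and 12 rows, so the sets of genes behind the names differ.

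All 23 sequences, of which those printed above are a selection, were then compared between the groups. In a fit over the whole table of unannotated sequences 18 of the 23 could be tested, and none passed in edgeR, against 0.161% of all sequences tested (2 of 1244). At an unadjusted p under 0.05 there were 5 of the 18, against 20.8% of all sequences. DESeq2 called 1, against 5.02%. The log2 fold change was below 0 in 16 of the 18, with a median of -0.72 against -0.01 for the whole table. Some of the 18, the Tyr-GTA end and the longer n-TRacg6 trailer among them, had enough UMIs for testing only in Sham as a group. The count of 16 and the median carry that selection. The fit with the replicate block called 4, all lower in TAC, against 7.07% of all sequences called lower: the Tyr-GTA end (adjusted p = 0.0106), the Leu-CAA end (0.0160) and both lengths of the n-TRacg6 trailer (0.0225 and 0.0231). That fit called 141 sequences in the whole table. Several of the 23 come from the same gene and differ by a single end base.

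The mature 3′ end of the Tyr-GTA gene n-TYgta9 was the sequence with the smallest p among them. It had 3, 7 and 8 UMIs in TAC 1, 2 and 3, against 38, 23 and 13 UMIs in Sham 1, 2 and 3. The sequence entered the test through its Sham counts alone, so its p-values carry that selection. All TAC libraries lay below all Sham libraries (log2 fold change -2.11 ± 0.41, SE, adjusted p = 0.0601), and DESeq2 gave an adjusted p of 0.0160. The Leu-CAA end had 27, 36 and 53 UMIs in TAC, against 117, 63 and 58 UMIs in Sham, again without overlap (-1.20 ± 0.35, adjusted p = 0.0876). The Leu-CAA family sum of the tRNA table overlapped between the groups, at 4202 ± 1311 CPM in TAC and 3994 ± 2046 CPM in Sham.

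The Ser-GCT end had 20, 22 and 46 UMIs in TAC, against 52, 33 and 20 UMIs in Sham, and overlapped (-0.37 ± 0.38, adjusted p = 0.664). The Arg-ACG end of n-TRacg2 had 4, 5 and 14 UMIs in TAC, against 20, 24 and 3 UMIs in Sham, and overlapped as well (-1.09 ± 0.57, adjusted p = 0.341). The Ala-TGC end that carries T after CCA had 9, 12 and 17 UMIs in TAC, against 13, 19 and 8 UMIs in Sham (-0.23 ± 0.43, adjusted p = 0.840). These values rest on few molecules and differ by less than the spread between the libraries.

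Among the trailers, that of the Cys-GCA gene n-TCgca55 was the most abundant. It had 85, 58 and 79 UMIs in TAC 1, 2 and 3, against 154, 85 and 68 UMIs in Sham 1, 2 and 3, and after scaling every TAC library lay below every Sham library (-0.64 ± 0.25, adjusted p = 0.176). The longer n-TRacg6 trailer had 8, 3 and 1 UMIs in TAC, against 21, 26 and 5 UMIs in Sham, without overlap after scaling (-2.19 ± 0.57, adjusted p = 0.0855). It too entered the test through its Sham counts alone. The form 1 base shorter was more abundant, with 29, 17 and 11 UMIs in TAC, against 72, 51 and 12 UMIs in Sham, and it overlapped after scaling (-1.27 ± 0.40, adjusted p = 0.0970). The n-TTcgt5 trailer had 7, 9 and 7 UMIs in TAC, against 18, 13 and 6 UMIs in Sham, without overlap after scaling (-0.78 ± 0.37, adjusted p = 0.273).

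The Ala-CGC trailer of n-TAcgc8 split the libraries in another way. The sequence shown had 16, 0 and 15 UMIs in TAC 1, 2 and 3, against 5, 12 and 0 UMIs in Sham 1, 2 and 3. TAC 2 and Sham 3 were at 0, and the form that starts 1 base later had 25, 1 and 25 UMIs in TAC, against 15, 10 and 0 UMIs in Sham.

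Summed by kind, mature ends and trailers were both lower in TAC per 1000000 miRNA UMIs. The 10 sequences that cover mature 3′ ends are called mature ends here. Those with T after CCA are included, though they run past the end of a mature tRNA. Whether the last letters are encoded in the genome was not checked. They stood at 34.8, 59.2 and 91.5 per 1000000 in TAC, against 92.7, 96.2 and 125 per 1000000 in Sham. The 13 trailers stood at 89.7, 63.9 and 99.4 per 1000000 in TAC, against 119, 113 and 112 per 1000000 in Sham. The groups did not overlap in either sum, with TAC 3 closest to Sham in both, and the sums are given without a test. This separation depended on the scale. Per 1000000 UMIs of all RNA classes with the miRNA factors, the mature 3′ ends stood at 35.8, 56.9 and 94.4 in TAC, against 78.9, 81.4 and 92.3 in Sham. On that scale the trailers stood at 92.4, 61.4 and 102 in TAC, against 101, 95.8 and 82.4 in Sham, and both sums overlapped.

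**Figure D5:**
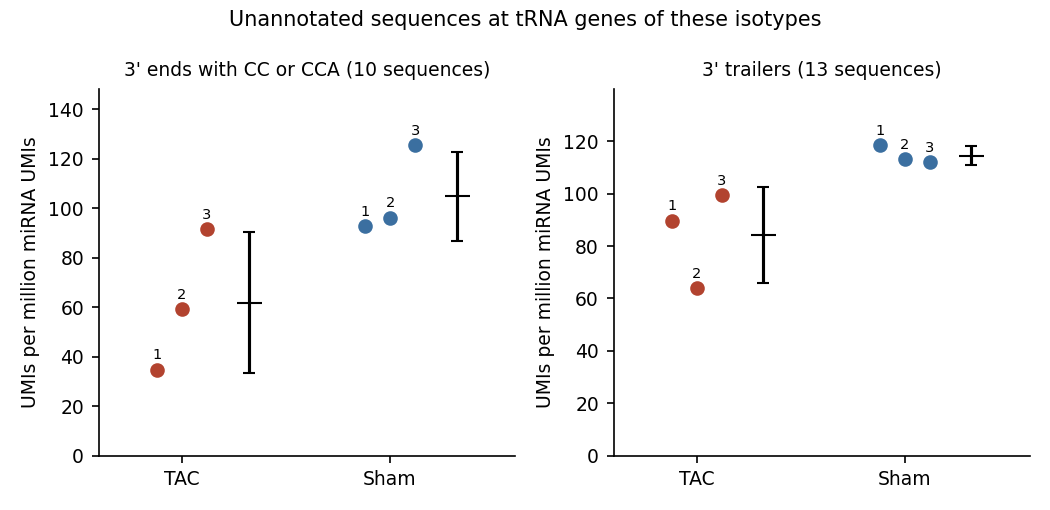
Summed UMIs per 1000000 miRNA UMIs of the unannotated sequences at tRNA genes of these isotypes, those that cover mature 3′ ends on the left and trailers on the right (points, numbered by replicate; bars give mean ± SD, n = 3). All TAC libraries lie below all Sham libraries in both panels on this scale, though not per 1000000 scaled UMIs of all RNA classes, with trailer levels of 63.9 to 99.4 per 1000000 in TAC and 112 to 119 in Sham.

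Fragments of other RNA polymerase III transcripts were looked up as a related list, of which 4 of 7 were found. Fragments of Rny1, a Y RNA, stood at 390, 321 and 391 per 1000000 miRNA UMIs in TAC, against 549, 426 and 520 per 1000000 in Sham, without overlap. Those of Rny3, another Y RNA, stood at 25.05, 27.04 and 53.6 per 1000000 in TAC, against 106, 71.6 and 112 per 1000000 in Sham, also without overlap. Those of Rn7sk, the 7SK RNA, stood at 4.17, 12.6 and 9.15 per 1000000 in TAC, against 25.3, 16.9 and 16.96 per 1000000 in Sham, again without overlap. Those of the vault RNA Vaultrc5 stood at 13.9, 15.4 and 22.2 per 1000000 in TAC, against 19.2, 25.4 and 62.7 per 1000000 in Sham, and overlapped. These levels were compared on this scale alone, on which the trailers and mature ends above also separated. Whether the separations hold per scaled UMIs of all RNA classes was not tested. The share of all transcripts without overlap was not computed. None of the 6 listed enzymes that cut, modify or restrain cutting of tRNA (Ang, Rnh1, Elac2, Nsun2, Trdmt1, Dicer1) was found among the listed mRNA fragments.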

How the data were processed

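Raw counts per tRNA gene, as UMIs and as reads, were deposited by the authors, per the file headers. Libraries were prepared from total RNA with a QIAseq kit for miRNAs, per the labels' protocols. The submitters' processing notes name GRCm38 as genome build. For the aligner and for fragments shared by several genes, the method is not given in the sources used here.

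UMI counts were tested with edgeR 4.0.16 in R 4.3.3 (TMM factors, rows kept by filterByExpr at min.count 10 and min.total.count 15, two-sided quasi-likelihood F test, Benjamini-Hochberg over the whole table, threshold 0.05), after the code was tested on simulated data. The same test was run on anticodon family sums. Alternatives were RLE, upper-quartile and no factors, library sizes over all RNA classes with the TMM factors of the miRNAs, no filter, DESeq2 1.42.0, limma-voom (limma 3.58.1), reads in place of UMIs, a block for the replicate number, and fits without each library. Isodecoder sums and the fit of the unannotated sequences were added after seeing the data. The standard error of a fold change was taken from the F statistic.

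The fragments described, the lists and the tests were chosen with earlier results of these data known. Rows named in the text were those past the threshold, the 3 with the smallest p in each direction and the 10 most abundant, families those past the threshold or otherwise the 3 with the smallest p in each direction, and the most abundant family of each class. Exceptions are stated in the text.

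Positions of the unannotated sequences were read as counted from 0, since 16 sequences ending in CCA then end 3 bases past a RefSeq tRNA gene, against 0 when counted from 1, and are printed counted from 1. Library sizes are given with the results, and libraries of 1 group differed by more than sampling noise (chi-square over degrees of freedom of 12.1 to 39.4). The libraries are numbered 1 to 3 in each group by their titles. Deviations from the group means of log2 CPM correlated across 238 tRNA rows between same-numbered libraries, with r = 0.245, 0.352 and 0.365, and no other pair was above 0.0693. Across 322 miRNAs the same-numbered values were 0.278, 0.297 and 0.558, but TAC 1 correlated more with Sham 2 (0.367) and TAC 2 more with Sham 1 (0.334). With every same-numbered r over 0.1, same-numbered libraries were read as possible pairs, a reading that is uncertain for numbers 1 and 2. The main fits did not use this pairing, which entered only the alternative fit with the replicate block. Results of the blocked fit stand beside those whose call they change. In the column numbering all TAC libraries precede all Sham libraries, so order and group cannot be told apart.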

Additional observations from a re-analysis of the deposited data

How the results depend on the processing

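The 3 calls among single rows became 6 with tRNA library size only, 1 with all-class library sizes, 1 with DESeq2 and 9 with the replicate block, and ranged from 0 to 3 when each library was left out in turn, where the 3 without Sham 1 were 2 higher and 1 lower. They stayed within 1.5 times of 3 with RLE or upper-quartile factors and without the filter (3 each), and with limma-voom or reads in place of UMIs (2 each). The 0 calls among anticodon families became 2 with the replicate block and stayed at 0 under the other alternatives, leaving out each library included. The difference in the share of tRNA UMIs was 2.55 percentage points with reads.

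The log2 fold change of Ala-CGC turned to 0.021 and that of tRNA-Ala-TGC-2-1 to 0.16 with library size only, and without each library the second ranged from -0.57 to 0.085. That of tRNA-Gln-CTG-7-1 turned to -0.0015 with RLE factors, -0.092 with all-class library sizes, -0.0026 with DESeq2 and -0.0087 with reads, and ranged from -0.12 to 0.17 without each library. No other fold change recomputed in this way changed sign, and the causes were not tested. Depth limits single rows: 65 of the 148 rows held fewer than 100 UMIs over 6 libraries and 39 rows were too low to test.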
